A study of Bos taurus and Mus musculus with 16 samples.

Results

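Epithelial cells are held together by adherens junctions and desmosomes, and the transcripts of 9 genes of these junctions were examined in mouse and bovine embryos after editing of the gene for TEAD4. The members were the rows of the deposited mouse and bovine tables that carry the symbols Cdh1, Ctnna1, Ctnnb1, Ctnnd1, Jup, Dsp, Dsc2, Dsg2 and Pkp2, with upper and lower case treated alike. All 9 were found among the 16655 genes of the mouse table and all 9 among the 14852 genes of the bovine table.

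At an adherens junction, E-cadherin (Cdh1) of neighbouring cells binds outside the cells, and its tail binds beta-catenin (Ctnnb1) and p120-catenin (Ctnnd1). Alpha-catenin (Ctnna1) links beta-catenin to actin. At a desmosome, the cadherins desmocollin (Dsc2) and desmoglein (Dsg2) bind plakophilin (Pkp2) and plakoglobin (Jup), and desmoplakin (Dsp) ties the complex to keratin filaments. Plakoglobin, a close relative of beta-catenin, is found in both kinds of junction. In the preimplantation embryo, E-cadherin adhesion is needed for compaction of the morula, and desmosomes form in the trophectoderm, the outer epithelium of the blastocyst.

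Polyadenylated RNA was measured by sequencing in 16 samples. All embryos were injected as zygotes with mRNA of BE3, a fusion of a cytidine deaminase and nicking Cas9 that converts C to T at guided sites. Control embryos received BE3 mRNA alone, and edited embryos received it with a mix of single guide RNAs against Tead4 (mouse) or TEAD4 (bovine), the gene for a DNA-binding factor that acts with YAP1 and WWTR1. Mouse embryos were morulae of day 3.25 (2 control and 2 edited samples), and bovine embryos were blastocysts of day 7.0 (6 control and 6 edited samples). No control received a guide RNA, so other effects of the guide RNAs cannot be told apart from loss of TEAD4. The labels state neither the count of embryos in a sample nor whether injections were separate, so the p-values reflect spread among these samples that may be technical alone.

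Reads assigned to genes numbered 3642907 to 6109425 per mouse sample and 817329 to 2501592 per bovine sample. Values are normalized reads, that is, reads divided by a size factor per sample, and a log2 fold change is edited minus control on log2(value + 1). The targeted gene was lower on average in both species, with overlapping groups in the bovine samples. Tead4 had 458 and 519 normalized reads in the control morulae against 57.2 and 76.5 after editing (adjusted p = 5.37e-09, limma). Bovine TEAD4 ranged from 61.2 to 125 (median 92.9) in control and from 22.6 to 65.6 (median 37.5) in edited blastocysts, which gave a log2 fold change of -1.25 ± 0.25 (SE over 6 and 6 samples) with an adjusted p of 0.235 in limma, short of the threshold. With edgeR the adjusted p was 0.260, and DESeq2 run on the recovered reads gave 0.0066, past the threshold. In the authors' deposited table it was 0.0142. Krt8, Krt18 and Gata3, markers of the trophectoderm, and Pou5f1, a marker of the inner cell mass, were detected in every sample of both species. These come from lists of 8 and 6 markers. Bovine NANOG ran from 0 to 226 normalized reads and ELF5 from 0 to 7.29, and EOMES was not in the bovine table. Of the bovine lists 0 of 4 and 0 of 6 tested markers passed (limma), beside 0.0113% of all genes tested. Their sums were 11096 to 21404 and 760 to 1257 in control, and 8442 to 21455 and 758 to 1177 in edited samples. Bulk RNA cannot tell fewer cells of a type from less RNA per cell.

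In mouse morulae the junction genes split. Of the 8 members that passed the filter of a mean of at least 10 normalized reads, plakoglobin (Jup) rose, and Cdh1, Ctnna1, Dsg2 and Dsp fell, at a Benjamini-Hochberg adjusted p under 0.05 over all 11386 genes tested (limma). Ctnnb1, Ctnnd1 and Pkp2 did not pass. Over all tested genes 15.3% passed, 6.92% being higher and 8.38% lower in edited morulae. An unadjusted p under 0.05 was reached by 5 of the 8 members and by 28.6% of all genes. Groups did not overlap for 6 of 8 members, 1 higher (28.6% of all genes) and 5 lower (29.2%), beside 57.8% of all genes in either direction. The median log2 fold change of the 8 tested members was -0.54, beside -0.0049 over all genes tested. Markers of the trophectoderm were examined beside these genes. Of 7 tested in the mouse, 0 rose and 4 fell (Krt18, Gata3, Cdx2 and Krt8). Tfap2a (log2 fold change -2.12), Eomes (0.46) and Tfap2c (0.18) did not pass. The Cdx2 call was lost without either control sample (adjusted p up to 0.0746) and the Krt18 call with robust limma (0.0552). The summed level of the markers was 6220 to 7191 normalized reads in control and 1976 to 2176 in edited samples. Of 6 inner cell mass markers, only Pou5f1 passed, and it rose from a mean of 390.3 to 1031 normalized reads. The estimates were positive for 4 and negative for 2, Nanog (log2 fold change -0.58) and Gata6 (-0.33). The sums of the 6 were 4891 to 5439 in control and 4900 to 5637 in edited samples. The part of such shifts in the junction genes was not tested.

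**Figure D1:**
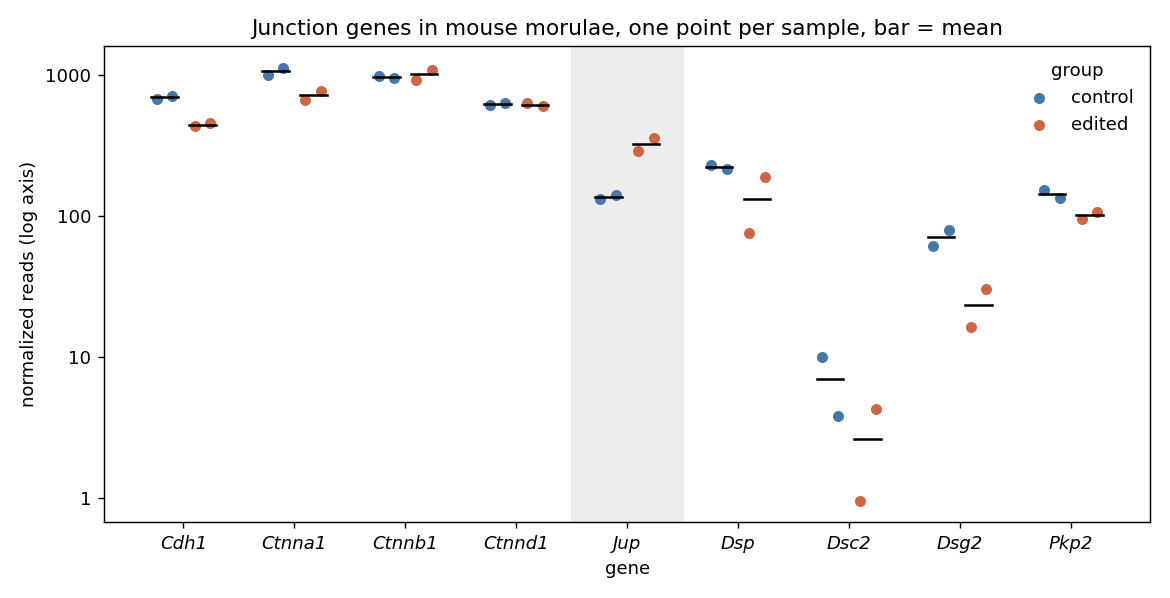
Normalized reads (log axis) of the 9 junction genes in 2 control and 2 edited mouse samples. Each point is a sample, each bar a group mean, and grey marks Jup, which belongs to both junctions. The edited points of Jup lie above the control points, and those of Cdh1, Ctnna1, Dsp, Dsg2 and Pkp2 lie below them.

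E-cadherin is encoded by Cdh1 (chromosome 8, 106603351 to 106670246, plus strand, GRCm38). It had 682 and 710 normalized reads in the control morulae against 436 and 457 after editing. The groups did not overlap, and the edited mean was 64.2% of the control mean. The log2 fold change was -0.64 ± 0.19 (SE, n = 2 per group, 95% interval -1.02 to -0.25, adjusted p = 0.0205).

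The alpha-catenin gene Ctnna1 (chromosome 18, 35118859 to 35254779, plus strand) had 1003 and 1133 normalized reads in the control morulae against 671 and 769 after editing. These groups did not overlap either, and the edited mean was 67.4% of the control mean. Its log2 fold change was -0.57 ± 0.18 (95% interval -0.94 to -0.20, adjusted p = 0.0303, limma).

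The 2 catenins that bind the cadherin tail did not pass. Ctnnb1 (chromosome 9, 120929216 to 120960507, plus strand) had 981 and 956 normalized reads in the control morulae against 931 and 1094 after editing, with control values lying between the edited ones. Its log2 fold change of 0.06 had a 95% interval from -0.30 to 0.42, which overlaps the intervals of Cdh1 and Ctnna1. A difference between these genes was not tested. Ctnnd1 (chromosome 2, 84600071 to 84650765, minus strand) had 618 and 635 against 636 and 601, a log2 fold change of -0.02 with a 95% interval from -0.40 to 0.36. In the annotation 69.7% of the exon length of Ctnnd1 overlaps Gm28635 on the same strand, so reads of the pair cannot be told apart.

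The gene that both junctions share moved the other way. Jup (chromosome 11, 100368958 to 100397763, minus strand) had 132 and 142 normalized reads in the control morulae against 289 and 360 after editing, so the lower edited sample was above both controls. The edited mean was 237% of the control mean. The log2 fold change of 1.23 ± 0.23 (95% interval 0.75 to 1.71, adjusted p = 0.000706, limma) passed in each of the 4 fits that left out 1 mouse sample, where the adjusted p was at most 0.0312.

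Among the desmosome genes, desmoglein fell most. Dsg2 (chromosome 18, 20558074 to 20604521, plus strand) had 61.5 and 79.7 normalized reads in the control morulae against 16.2 and 30.5 after editing. The edited mean was 33.1% of the control mean, and the groups did not overlap. The log2 fold change was -1.61 ± 0.42 (95% interval -2.46 to -0.76, adjusted p = 0.00882, limma). These values rest on 17 to 63 reads per sample.

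Desmoplakin fell as well, with a wide spread. Dsp (chromosome 13, 38151294 to 38198577, plus strand) had 231 and 218 normalized reads in the control morulae, and its edited samples lay far apart, at 75.3 and 190. The log2 fold change was -0.90 ± 0.31 (95% interval -1.53 to -0.27, adjusted p = 0.0452, limma). The call was lost with edgeR (adjusted p = 0.117), DESeq2 (0.190), robust limma (0.0906), no filter on low values (0.0825) and the trend on exon length removed (0.0655). Without edited sample 1 the log2 fold change was -0.24 (adjusted p = 0.641, the highest over all alternatives; the lowest was 1.58e-06). Of the edited samples, sample 1 was far below the controls and sample 2 was near them. Antisense genes overlap 5.20% of the exon length of Dsp and 3.99% of that of Dsg2.

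Pkp2 (chromosome 16, 16213318 to 16272712, plus strand), the plakophilin gene, had 154 and 134 normalized reads in the control morulae against 95.3 and 107 after editing. These groups did not overlap, but the log2 fold change of -0.51 ± 0.27 did not pass (95% interval -1.06 to 0.05, adjusted p = 0.221, limma). The desmocollin gene Dsc2 (chromosome 18, 20030633 to 20059554, minus strand) was below the filter and not tested, with 9 and 3 reads in control and 1 and 6 in edited morulae. These counts lie near 3 reads, the limit that a count of 0 allows, so no fold is given.

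Levels can be compared between mouse genes only per length, here as normalized reads per kilobase of annotated exon. In control morulae Ctnna1 (286 on average) and Ctnnb1 (267) were highest and overlapped each other. Cdh1 (157) and Ctnnd1 (97.4) followed, then Pkp2 (49.4), Jup (42.5), Dsp (23.4), Dsg2 (8.54) and, lowest, Dsc2, and from Ctnnb1 down no 2 neighbours in this order overlapped. In edited morulae the order differed. Ctnnb1 (279) stood above Ctnna1 (193), without overlap, and Cdh1 (101), Jup (101) and Ctnnd1 (96.1) overlapped as neighbours. Per kilobase, Jup was below Pkp2 in control and level with Cdh1 in edited morulae, and Pkp2 (34.7), Dsp (13.8) and Dsg2 (2.82) kept their order below. The lengths come from GENCODE M21, which may differ from the authors' annotation.

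The calls of Cdh1, Ctnna1, Dsg2 and Dsp were each lost without control sample 1 and without control sample 2, when 1 member (Jup) was called, beside 535 and 533 genes in all. Ctnna1 and Dsp also lost theirs without edited sample 1. Scaled to equal totals, which put the median of all genes at 0.12 and the share of higher calls at 62.0% (against 45.2%), only Jup and Dsg2 of the members were called, and Cdh1 had an adjusted p of 0.0561 and Ctnna1 of 0.0800, within ranges of 0.00770 to 0.219 and 0.00429 to 0.321 over all alternatives. The most abundant mouse feature, LOC101056014, took 2.42% and 3.30% of reads in control and 7.20% and 4.73% after editing, and its part in these differences was not tested.

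A ratio of 2 genes within a sample is nearly free of the size factor (1 was added to each value). The log2 ratio of Jup to Ctnnb1 was -2.89 and -2.75 in control and -1.68 and -1.60 in edited morulae, a difference of 1.17. The linear ratios were 0.135 and 0.149 against 0.311 and 0.330. The log2 ratio of Cdh1 to Ctnnb1 went from -0.52 and -0.43 to -1.09 and -1.26. Cdh1 to Ctnna1, which both fell, was at -0.67 to -0.56 in control and -0.75 to -0.62 in edited morulae, with overlap. An exact permutation test of 2 against 2 samples cannot go below p = 0.333, so the mouse ratios are given as values. The ratios of Cdh1 to Ctnnb1 and to Ctnna1 were chosen after their values were seen.

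**Figure D2:**
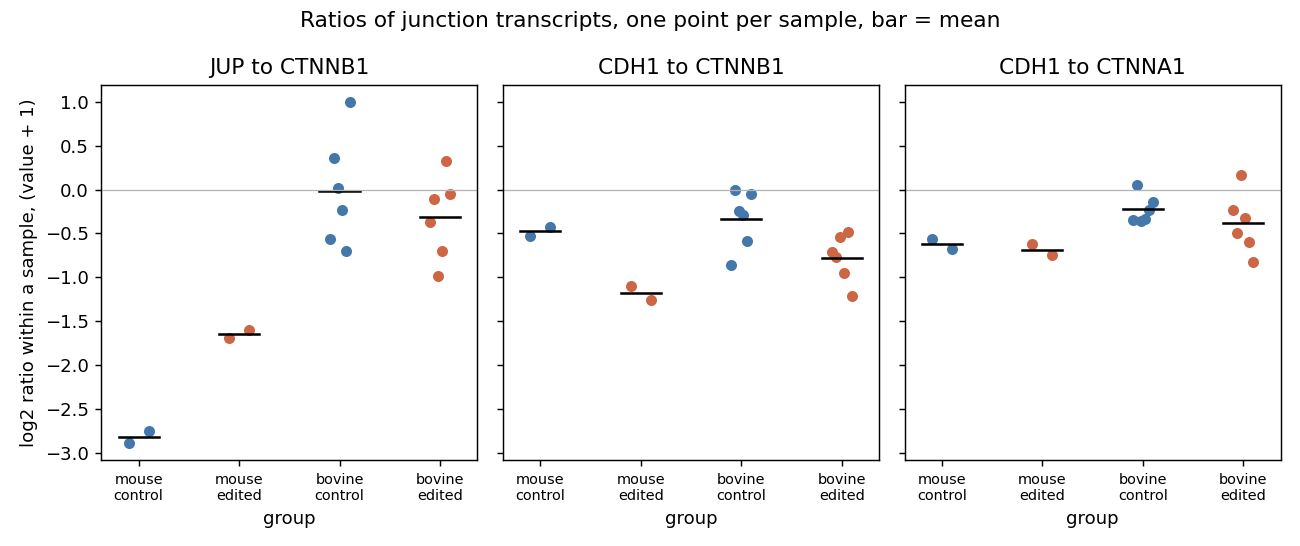
Log2 ratios of junction transcripts within each sample, by group, with points for samples and bars for means. In the mouse, Jup to Ctnnb1 went from -2.82 to -1.64 on average and Cdh1 to Ctnnb1 went from -0.48 to -1.18. The bovine means went from -0.02 to -0.32 and from -0.34 to -0.78, and the bovine groups overlap in all 3 panels. Overlap cannot be compared between the species, because their sample numbers differ. Groups did not overlap for 57.8% of all mouse genes tested and for 0.248% of all bovine genes tested.

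In bovine blastocysts no junction gene passed. None of the 9 bovine members passed in limma after adjustment over 8884 genes, and 0 of 9 had an unadjusted p under 0.05. In this fit 1 gene passed in all, and the targeted TEAD4 did not (log2 fold change -1.25, adjusted p = 0.235, limma). The lack of calls therefore does not show that the members were unchanged. The edgeR and DESeq2 fits called 0 members as well. Over all genes tested 0.0113% passed and 5.88% had an unadjusted p under 0.05, so the members' counts were at or near the background. Control and edited ranges overlapped for every member, and groups did not overlap for 0.248% of all genes tested (0.09% higher and 0.158% lower in edited). The median log2 fold change of the members was -0.07, beside 0.01 over all genes.

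**Figure D3:**
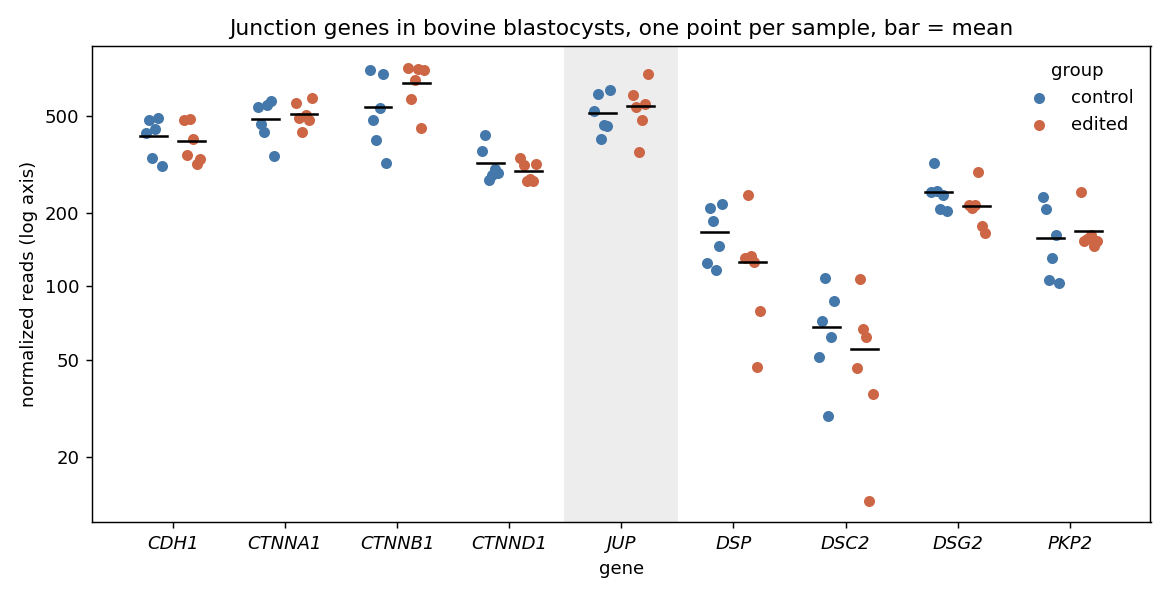
Normalized reads (log axis) of the 9 junction genes in 6 control and 6 edited bovine samples, with points for samples and bars for group means. The 2 groups overlap for each gene, and edited sample 5 holds the lowest points of DSP and DSC2.

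Bovine CDH1 ranged from 311 to 491 normalized reads in control (median 434) and from 318 to 484 in edited blastocysts (median 375). The log2 fold change was -0.07 ± 0.17 (SE over 6 and 6 samples). Its 95% interval from -0.43 to 0.29 overlaps the mouse interval of -1.02 to -0.25. CTNNA1 ranged from 343 to 577 (median 502) in control and from 431 to 591 (median 497) in edited blastocysts, a log2 fold change of 0.09 (95% interval -0.25 to 0.43). CTNND1 ranged from 274 to 419 (median 297) and from 270 to 336 (median 294), a log2 fold change of -0.10 (95% interval -0.43 to 0.22). All 3 genes overlapped widely with and without editing.

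CTNNB1 had the largest positive estimate. It ranged from 321 to 773 normalized reads in control (median 510) and from 445 to 790 in edited blastocysts (median 738). Although 4 of the 6 edited samples lay above 700, 2 control samples did as well. The log2 fold change of 0.37 ± 0.22 did not pass (95% interval -0.08 to 0.82, adjusted p = 0.793, limma). The bovine libraries also differed in RN18S1, the 18S ribosomal RNA gene, which took 12.4% to 36.6% of reads in control (median 17.9%) and 9.27% to 19.7% in edited samples (median 11.6%). With that percentage as a covariate, an alternative chosen after seeing the data, the CTNNB1 estimate was 0.0083 (adjusted p = 0.999, within a range of 0.594 to 0.999 over the alternatives). In the same fit the estimates of CDH1 (from -0.07 to -0.25), JUP (from 0.07 to 0.16), CTNND1 (from -0.10 to -0.13) and DSG2 (from -0.20 to -0.22) grew in size. Because the percentage differed between the groups, this fit cannot fully separate it from editing.

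JUP, the member that rose in the mouse, ranged from 402 to 640 normalized reads in bovine control samples (median 492) and from 355 to 745 in edited samples (median 552). The edited range enclosed the control range. Its log2 fold change was 0.07 ± 0.18, and the 95% interval from -0.31 to 0.46 lies below the mouse interval. The log2 ratio of JUP to CTNNB1 was -0.02 ± 0.63 (SD, n = 6) in control and -0.32 ± 0.47 in edited blastocysts (exact permutation test, two-sided, p = 0.396, where the smallest p possible is 0.00216). The ratio of CDH1 to CTNNB1 was -0.34 ± 0.33 and -0.78 ± 0.27 on the log2 scale, with overlapping ranges. Its difference of -0.44 had the sign of the mouse difference (-0.70) and was not tested.

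Among the bovine members DSP and DSC2 had the widest spread. DSP ranged from 117 to 218 normalized reads in control (median 166) and from 46.5 to 237 in edited blastocysts (median 128), a log2 fold change of -0.54 ± 0.29 (95% interval -1.15 to 0.08, adjusted p = 0.792, limma). The lowest and the highest DSP value of all 12 samples were both in the edited group. Without edited sample 5 the DSP estimate was -0.29 (adjusted p = 0.877, limma), and with the RN18S1 percentage as a covariate it was -0.091 (0.999), within a range of 0.622 to 0.999 over the alternatives. DSC2 ranged from 29.5 to 108 (median 67.0) and from 13.2 to 107 (median 54.1), a log2 fold change of -0.44 with a 95% interval from -1.24 to 0.37. The DSC2 estimate was -0.088 without edited sample 5 and 0.12 with the RN18S1 percentage as a covariate.

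DSG2 ranged from 205 to 320 normalized reads in control (median 241) and from 165 to 295 in edited blastocysts (median 213). Its log2 fold change of -0.20 had a 95% interval from -0.56 to 0.17, above the mouse interval of -2.46 to -0.76. The species difference itself did not pass (adjusted p = 0.0542 from the limma standard errors). PKP2 ranged from 103 to 233 (median 147) and from 146 to 244 (median 155), a log2 fold change of 0.15 (95% interval -0.30 to 0.60). Unlike in the mouse morulae, where Dsc2 had at most 9 reads, bovine DSC2 had 23 to 108 reads in every sample, although stage and species differ together.

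**Figure D4:**
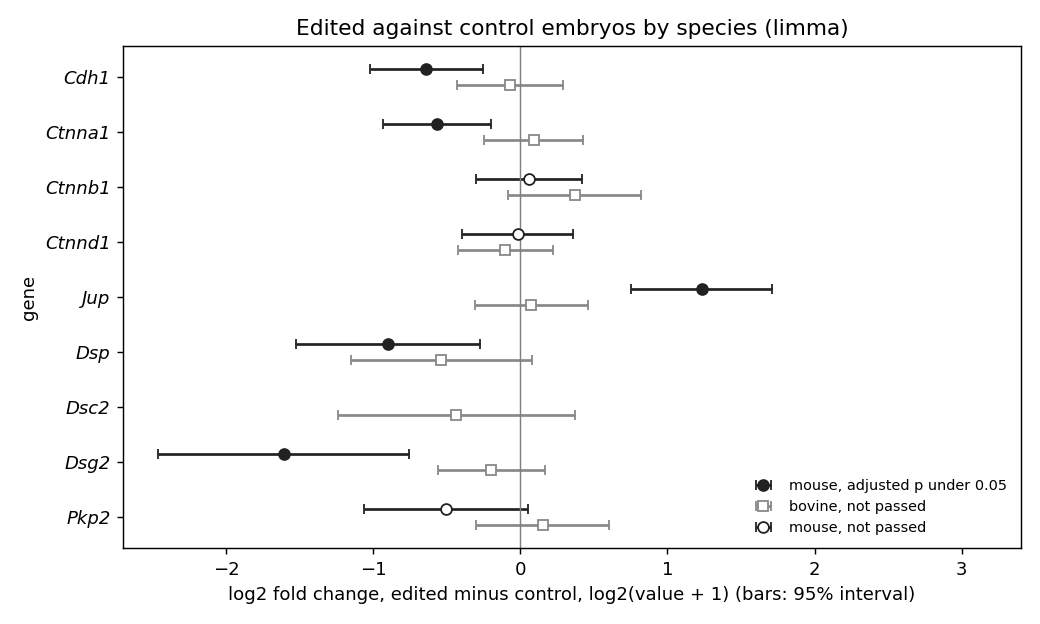
Log2 fold changes of edited against control embryos (x axis) for each gene in mouse (circles, 2 samples a group) and bovine (squares, 6 a group), with 95% intervals from limma and filled symbols for an adjusted p under 0.05. Filled are Jup on the right and Cdh1, Ctnna1, Dsp and Dsg2 on the left, all in the mouse, and Dsc2 has no mouse value.

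The difference between species was tested by subtracting the bovine from the mouse log2 fold change for 7073 genes tested under the same symbol in both tables. Of 8 members, 1 passed, beside 6.07% of all these genes (21.7% at an unadjusted p under 0.05). Of all calls 39.2% were positive, and 69.4% at equal totals without the most abundant feature, where the median of all genes moved from -0.06 to 0.14. For JUP the mouse value exceeded the bovine one by 1.16 ± 0.30 (SE, 95% interval 0.56 to 1.76, adjusted p = 0.0145 from the limma standard errors). This call was lost without mouse control sample 1 (adjusted p = 0.128) and without mouse control sample 2 (0.0743). The difference for DSG2 was -1.41 ± 0.45 (adjusted p = 0.0542), which passed without mouse edited sample 2 (0.00518) and without bovine control sample 2 (0.0458), within a range of 0.00518 to 0.299 over the alternatives. For CTNNA1 the difference was -0.66 ± 0.24 (adjusted p = 0.0901, limma standard errors), which passed without mouse edited sample 2 (0.0316, the lowest of a range up to 0.338), and for CDH1 it was -0.57 ± 0.25 (0.179). Species, stage and day differ together and cannot be told apart.

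Over the 12 bovine samples, with group means removed, DSP and DSC2 varied together. Their Pearson r was 0.93 (permutation p = 0.00025, adjusted p = 0.00900 over 36 pairs of members) and Spearman's rho was 0.86 (permutation p = 0.00205, adjusted p = 0.0738). Without the 2 samples farthest from the median of DSP, edited samples 2 and 5, r was 0.82. Edited sample 5 was lowest for both genes, and both were lower in deeper libraries, with r of -0.67 and -0.72 against log2 reads per sample. With that trend removed, chosen after seeing the data, r was 0.87 (permutation p = 0.00024). Both were also higher where RN18S1 took more reads (r = 0.61 and 0.56), and with that trend removed instead, likewise chosen after seeing the data, r was 0.90 (permutation p = 0.00056).

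**Figure D5:**
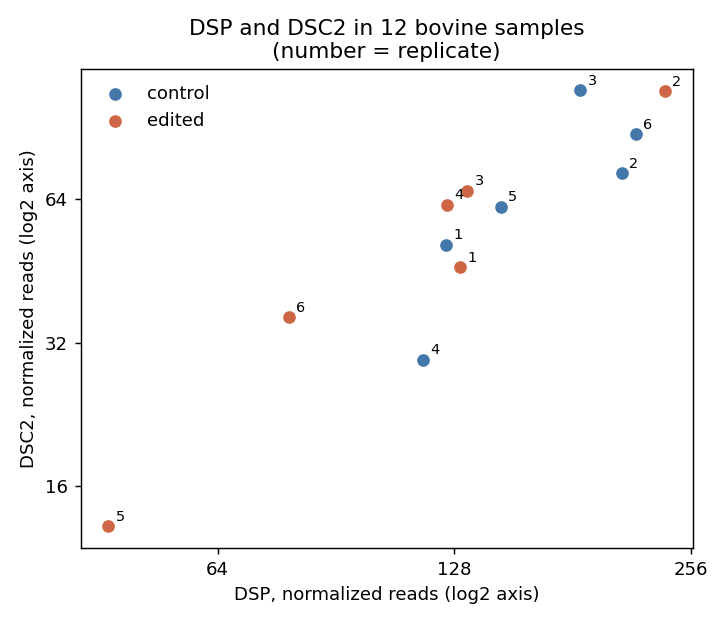
Normalized reads of DSP (x axis) and DSC2 (y axis), both on log2 axes, in the 12 bovine samples, colored by group and numbered by replicate. The points run from edited sample 5 (46.5 and 13.2) to edited sample 2 (237 and 107), and control samples lie along the same band.

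No other pair passed after adjustment. CTNND1 and PKP2 had r = 0.80 (rho 0.78, permutation p = 0.00369 and 0.0153, adjusted p = 0.0664 and 0.132) and r = 0.72 without control sample 2 and edited sample 1. CTNNA1 and CTNNB1 had r = 0.79 (rho 0.73, permutation p = 0.00686 and 0.0183, adjusted p = 0.0823 and 0.132) and r = 0.60 without control samples 5 and 6. Both catenins were lower where RN18S1 took more reads (r = -0.84 and -0.73), and with that trend removed their r was 0.47 (permutation p = 0.216). Over all 36 pairs r ran from -0.39 to 0.93, with a median of 0.24.

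By the same measure, the genes most like CDH1 among 2282 candidates were UBE4A (r = 0.92), CTH (0.89) and TMBIM4 (0.88). Those most like DSP were ANO6 (0.93), RPL22 (0.89) and TXN (0.87). These are descriptions over 12 samples that share depth and size factors.

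Other adherens junction genes of the mouse moved in both directions. Of 21 tested, 2 rose and 3 fell, beside 6.92% higher and 8.38% lower of all genes tested. Their median log2 fold change was -0.06. Lmo7, which encodes an afadin- and actinin-binding protein, fell (-1.48 ± 0.32, from 175 to 65.1 normalized reads). So did Vcl (-1.14 ± 0.28, from 165 to 74.2), which encodes vinculin, a protein that binds alpha-catenin under tension. Actn4, which encodes an actin cross-linking actinin, also fell (-0.67 ± 0.17, from 1758 to 1106, adjusted p = 0.00720, limma). Actn4 was named after its values were seen, and its results over the alternatives are not given here. Nectin1, an immunoglobulin-like adhesion receptor gene, rose by 1.24 ± 0.28, from 69.4 to 166 normalized reads. Lima1, which encodes an actin-binding LIM protein, rose by 1.01 ± 0.33, a call lost with edgeR (adjusted p = 0.0573), DESeq2 (0.117) and the trend on exon length removed (0.0756). Each of Lmo7, Vcl, Nectin1 and Lima1 lost its call without 1 or more of the control samples, with adjusted p up to 0.122, 0.194, 0.0504 and 0.496. In bovine blastocysts 0 of 14 tested passed in limma, and 0 had an unadjusted p under 0.05.

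Of 4 other desmosome genes tested in the mouse, 0 passed in limma, beside 15.3% of all genes tested. An unadjusted p under 0.05 was reached by 2, beside 28.6% of all genes. These were Evpl (log2 fold change 1.66, with overlapping groups) and Kazn (-0.66), named after their values were seen. Evpl ran from 1.26 to 26.8 normalized reads over the mouse samples, with means of 14.0 in control and 24.2 after editing. Its lowest value was 1 read, in control sample 2. Perp, a desmosomal membrane protein gene, was not among them, at 0.33 ± 0.18. In the bovine samples 0 of 4 passed and 0 had an unadjusted p under 0.05. DSG3 was present in the bovine table with group means of 41.5 (control) and 35.0 (edited) normalized reads.

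Among genes that process or transport cadherins, 2 of 17 tested rose and 2 fell in the mouse, beside 6.92% and 8.38% of all genes tested. Furin, which encodes a protease that cleaves cadherin precursors, rose by 1.41 ± 0.39, from 26.5 to 73.4 normalized reads, and Dnm2, the gene of an endocytic dynamin, rose by 0.95 ± 0.25. Rab11a, a recycling endosome GTPase gene, fell by 0.61 ± 0.18 and Cdc42, a polarity GTPase gene, fell by 0.56 ± 0.17 on the log2 scale. All 4 calls were lost in at least 1 fit without a control sample, with adjusted p up to 0.152, 0.284, 0.294 and 0.289. In the bovine samples 0 of 19 passed (limma), and 0 had an unadjusted p under 0.05.

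Of 14 tested regulators of epithelial genes in the mouse, 2 rose and 1 fell, beside 6.92% and 8.38% of all genes tested. Snai1, which encodes a repressor that binds the E-cadherin promoter, rose by 1.74 ± 0.36, from 35.1 to 117 normalized reads (adjusted p = 0.00173), a call lost without control sample 1 (0.0711, within leave-one-out fits up to that value). Elf3, the gene of an epithelial ETS factor, fell by 1.30 ± 0.20, from 1452 to 606 normalized reads, and passed in each fit that left out 1 sample (adjusted p at most 0.0197). Esrp2, an epithelial splicing regulator gene, rose by 0.79 ± 0.23, a call lost in 3 of those fits (adjusted p up to 0.256) and with the trend on exon length removed (0.0513). In the bovine samples 0 of 12 passed (limma). An unadjusted p under 0.05 was reached by 2, beside 5.88% of all genes tested. These were GRHL3 (1.08) and TFAP2C (-0.35), named after their values were seen.

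Markers of other cells that a sample could hold were also summed. In the mouse, the cumulus and granulosa markers found (3 of 12 listed) summed to 39.2 to 78.2 normalized reads in control and 79.4 to 91.5 after editing, mostly from Amhr2. The fibroblast markers (3 of 7) summed to 10.1 to 14.5 and 7.80 to 15.3, and the blood markers (3 of 10) to 65.8 to 79.3 and 93.6 to 168, mostly from Cd68. In the bovine samples the cumulus and granulosa markers summed to 13.3 to 194 in control and 12.3 to 76.4 after editing (HSD3B1 alone reached 182). The fibroblast markers summed to 37.9 to 69.6 and 24.1 to 59.2, and the blood markers to 19.97 to 30.6 and 7.07 to 34.4. Of the bovine fibroblast markers only COL1A2 was tested, and it did not pass (log2 fold change -1.05, unadjusted p = 0.00502, adjusted p = 0.792, limma). Its groups overlapped. Every gene with deposited values had at least 11 reads over the mouse samples or 16 over the bovine samples. None of the markers found could therefore be at 0 in all samples. The part of such cells in the results was not tested.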

How the data were processed

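Per the labels' protocols, RNA was primed with oligo(dT) and libraries followed Smart-seq2. Per the submitters' processing notes, Trimmomatic, HISAT2, featureCounts and DESeq2 were used with the builds mm10 and ARS-UCD1.2; the labels give no versions, annotation, strand setting or handling of multiply matching reads. In the deposited tables the signal values are counts per gene after the authors' DESeq2 scaling by sample. Beside them the authors gave log2 fold changes, p-values and a test statistic (a score), which was not used. Every value was a whole multiple of 1 read (100% within 0.05 reads), so reads were recovered for depth, edgeR 4.0.16 and DESeq2 1.42.0. In bovine edited sample 4, 1 read is so close to 1 normalized read that this adds little there.

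Within each table limma 3.58.1 (R 4.3.3, trend, two-sided, Benjamini-Hochberg over all genes tested) was run on log2(value + 1) for genes averaging 10 or more normalized reads; the scripts were tested on simulated data. For the species difference, limma's standard errors were combined, with Satterthwaite's degrees of freedom. Correlations used 100000 permutations within groups. Mouse coordinates and exon lengths come from GENCODE M21 (GRCm38); bovine coordinates are not used here. The members and lists were chosen with earlier results of these data known. All members were named; of each other list, up to 4 genes with the largest change among those past the threshold. A limit of 3 reads and all intervals cover counting or sampling error only. Replicate numbers in the titles were not taken as pairing.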

Additional observations from a re-analysis of the deposited data

Results flagged for a closer look

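JUP differed between the species: the mouse log2 fold change exceeded the bovine one by 1.16 (adjusted p = 0.0145 from the limma standard errors), with both edited mouse samples above both controls and overlapping bovine groups. The bovine DSG2 value of control sample 2, 320 normalized reads, stood apart from the other 5 control samples, and the bovine PKP2 value of edited sample 1, 244 normalized reads, stood apart from the other 5 edited samples. These are 2 of 20 groups checked, and chance alone sets about 1 in 20 apart.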

How the results depend on the processing

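The count of called mouse members was 5, and it was 2 at equal totals and 2 at equal totals without the most abundant feature (median of all genes 0.12 and 0.16). It was 4 with no filter, a mean of at least 50, edgeR, DESeq2, robust limma and the length trend removed; Dsp lost its call in these, except with the mean of at least 50, which leaves Dsg2 untested. It ran from 1 to 5 over the fits that left out 1 sample, with 3 without edited sample 1. In those fits with 1 sample left in a group, that sample is assumed to vary like the others. The bovine count was 0 in every alternative run. The cause of these changes was not tested. The species difference was called for 1 member, for 2 with the replicate block (JUP and DSG2, the latter at an adjusted p of 0.0380 from the limma standard errors), and for 0 to 3 when 1 sample was left out; edgeR gives no standard errors and was not run for it. Correlated bovine pairs numbered 1, 2 at equal totals, and 1 to 2 when 1 sample was left out. The bovine ratio of JUP to CTNNB1 ran from -0.43 to -0.091 when 1 sample was left out.

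Signs turned only for estimates that passed in no alternative: mouse Ctnnb1 (-0.012 with the length trend removed, and -0.058 to 0.18 when 1 sample was left out), mouse Ctnnd1 (0.11 and 0.15 at equal totals with and without the most abundant feature, 0.0045 with edgeR, and -0.060 to 0.022 when 1 sample was left out), bovine CDH1 (0.051) and CTNND1 (0.020) at equal totals, which moved the bovine median of all genes to 0.13, bovine CTNNA1 (-0.14), DSC2 (0.12) and PKP2 (-0.077) with the 18S percentage as a covariate, bovine CTNNA1 (-0.0056 to 0.14) and JUP (-0.021 to 0.19) when 1 sample was left out, and the DSP species difference (-1.02 to 0.30 when 1 sample was left out).

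Same-numbered samples correlated at -0.25 to 0.43 in the bovine table, where 1 of 6 control samples correlated best with its own number. In the mouse r was 0.0785 for the same number and -0.0785 for the other number. With 2 samples a group and group means removed, either value fixes the other. The mouse check can therefore neither show nor exclude pairing. With the replicate block 5 mouse and 0 bovine members were called, and the bovine ratio of JUP to CTNNB1 kept p = 0.406 (exact permutation of signs within pairs).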

Other observations

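N-cadherin (Cdh2), chosen after its values were seen and below the filter, stood at 1.12 and 1.26 normalized reads, 1 read each, in control morulae and at 10.5 and 10.6, or 11 and 15 reads, in edited morulae. In the bovine table CDH2 was at most 5.83 normalized reads in any sample.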
